A study of Homo sapiens with 16 samples.

Results

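A set of 10 genes that sense nutrients for the kinase complex mTORC1, or restrain it, was followed in 16 total RNA sequencing libraries of the human melanoma lines A101D and MeWo. The set holds the sestrins SESN1, SESN2 and SESN3, the stress-responsive inhibitor DDIT4, the arginine sensor CASTOR1, the S-adenosylmethionine sensor SAMTOR, the mTOR-binding inhibitor DEPTOR, and NPRL2, NPRL3 and DEPDC5, the subunits of GATOR1. Members were chosen by symbol and matched to the Ensembl identifiers of the deposited count tables, where the name table lists SAMTOR as BMT2. All 10 were found among the 60676 genes counted, and all 10 were among the 21569 genes that passed the filter on low counts.

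The series asked what happens when homocysteine takes the place of methionine in culture. A101D is labelled methionine dependent, MeWo is labelled methionine independent, and each line has 8 libraries, numbered 1 to 8 in the sample titles. Per the labels, cultures had either a control medium that contained methionine or one in which homocysteine stood in for it, both with cystine, glutamine, pyruvate and dialyzed serum. No label says which library came from which medium, so no comparison of media was made. Values are given for each line and, within it, for replicates 1-4 and 5-8, a division by the number in the title that no label explains. Nothing says whether libraries of 1 range came from separate cultures, so p-values measure the spread between these libraries, which may be technical. Each kind of line is represented by 1 line, so methionine dependence and any other difference between A101D and MeWo cannot be told apart. In such bulk samples, fewer cells that express a gene and less RNA per cell cannot be told apart either.

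mTORC1 couples amino acid supply to protein synthesis and growth, and it becomes active on the lysosome when Rag GTPases recruit it there. GATOR1 turns the Rag GTPases off, and GATOR2 in turn opposes GATOR1. Sestrins bind GATOR2, which SESN1 and SESN2 do when leucine is scarce, and CASTOR1 binds it when arginine is scarce. SAMTOR instead binds GATOR1 when S-adenosylmethionine, made from methionine, is low. DDIT4, also called REDD1, restrains mTORC1 by a separate branch through the TSC complex, and DEPTOR binds the kinase itself. SESN2 and DDIT4 are known as genes that cells switch on in the amino acid and endoplasmic reticulum stress responses. RNA levels say nothing of whether these sensors are bound to their ligands.

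The promoters of SESN2, DDIT4 and SESN3 are shown because these 3 members differed by more than 2-fold between replicates 5-8 and 1-4 of A101D, SESN2 and DDIT4 upwards and SESN3 downwards. Each stretch, from RefSeq on GRCh38.p14, runs 5′ to 3′ on the gene's own strand, from 250 to 71 bases before the start that RefSeq gives, which for all 3 genes is not the same base as the GENCODE start given with each gene. Capitals mark CCAAT or its reverse complement ATTGG, the box bound by the factor NF-Y, a motif that was added after the sequences had been seen. The SESN2 stretch is chr1:28259268-28259447 (plus strand), the DDIT4 stretch is chr10:72273674-72273853 (plus strand) and the SESN3 stretch is chr11:95232546-95232725 (minus strand).
SESN2: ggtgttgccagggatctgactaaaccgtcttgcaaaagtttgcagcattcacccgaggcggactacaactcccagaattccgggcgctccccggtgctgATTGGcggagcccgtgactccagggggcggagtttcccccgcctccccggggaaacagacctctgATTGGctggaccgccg
DDIT4: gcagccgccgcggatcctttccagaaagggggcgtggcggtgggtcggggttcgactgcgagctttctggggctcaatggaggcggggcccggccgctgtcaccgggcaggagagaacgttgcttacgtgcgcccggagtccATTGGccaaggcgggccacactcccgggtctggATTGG
SESN3: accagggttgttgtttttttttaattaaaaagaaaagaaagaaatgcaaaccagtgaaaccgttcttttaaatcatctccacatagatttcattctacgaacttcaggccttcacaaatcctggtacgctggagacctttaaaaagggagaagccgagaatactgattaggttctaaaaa
The SESN2 stretch held 2 matches, 151 and 86 bases before the start, and the DDIT4 stretch held 2, at 108 and 75 bases. The SESN3 stretch held 0 matches and was the richest in A and T, with 35.6% G and C against 62.8% in SESN2 and 68.9% in DDIT4. Over the full windows of 300 bases, which run to 50 bases past the start and were listed for 9 of the 10 members, all but DEPTOR, a CCAAT match on either strand was found in 6 (SESN1, SESN2, DDIT4, CASTOR1, SAMTOR and NPRL2). The same motif occurs in 34.6% of the 35116 windows of the table. The core of the C/EBP-ATF response element, searched as TGATGNAA on both strands, was found in 0 of the 9 and in 3.62% of all windows. The cAMP response element TGACGTCA was found in 0 of the 9 against 1.85%, and the E-box CACGTG in 1, NPRL3, against 7.26%. TGACGTCA and CACGTG share the core ACGT. A match is a string of letters and not a shown binding site, and the absence of a match covers this window alone.

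Total counts ran from 28910881 to 38961862 per library. Levels are in CPM, counts divided by the library's total in parts per 1e6, after scaling by trimmed mean of M-values (TMM) factors. The melanocyte-lineage markers were detected in both lines, and the 8 genes together reached 2496 to 3464 CPM in A101D, against 10265 to 11476 CPM in MeWo. Within A101D the pigment genes TYR (1.10 to 1.73 CPM) and TYRP1 (0.249 to 1.74 CPM) were close to absent, while SOX10 stood at 352 to 409 CPM. The larger sum of MeWo was that of PMEL (6250 to 6870 CPM, against 183 to 247 CPM in A101D) and TYRP1 (2065 to 2603 CPM), whereas DCT (1244 to 1895 CPM in A101D, 423 to 557 CPM in MeWo) and S100B (502 to 696 CPM against 122 to 139 CPM) were higher in A101D. Replicate 2 of MeWo had a count in 34471 genes, against 30066 to 31433 genes in the other MeWo libraries. No pair of libraries of 1 line agreed within sampling noise. The chi-square of a pair, divided by its degrees of freedom, was 2.32 to 6.69 for A101D libraries of the same range and 77.7 to 113.6 for those of different ranges. For MeWo pairs it was 1.86 to 7.20 and 8.60 to 13.8.

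SESN2 and DDIT4 were the members with the largest differences between the number ranges: both were over 3-fold higher in replicates 5-8 than in 1-4 of A101D, and both were also higher in replicates 5-8 of MeWo, by less. SESN3 was lower by over 2-fold in replicates 5-8 of A101D and level across the ranges of MeWo. Between the lines, all 3 sestrins and DEPTOR were lower in MeWo in both ranges. DDIT4 changed order between the lines: it was higher in MeWo among replicates 1-4 and higher in A101D among replicates 5-8. SAMTOR and NPRL3 stayed within a narrow band across all 16 libraries. Tests were made with limma, with p-values adjusted after Benjamini and Hochberg over all genes tested and a threshold of 0.05, and each difference is given as log2 ± SE.

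**Figure D1:**
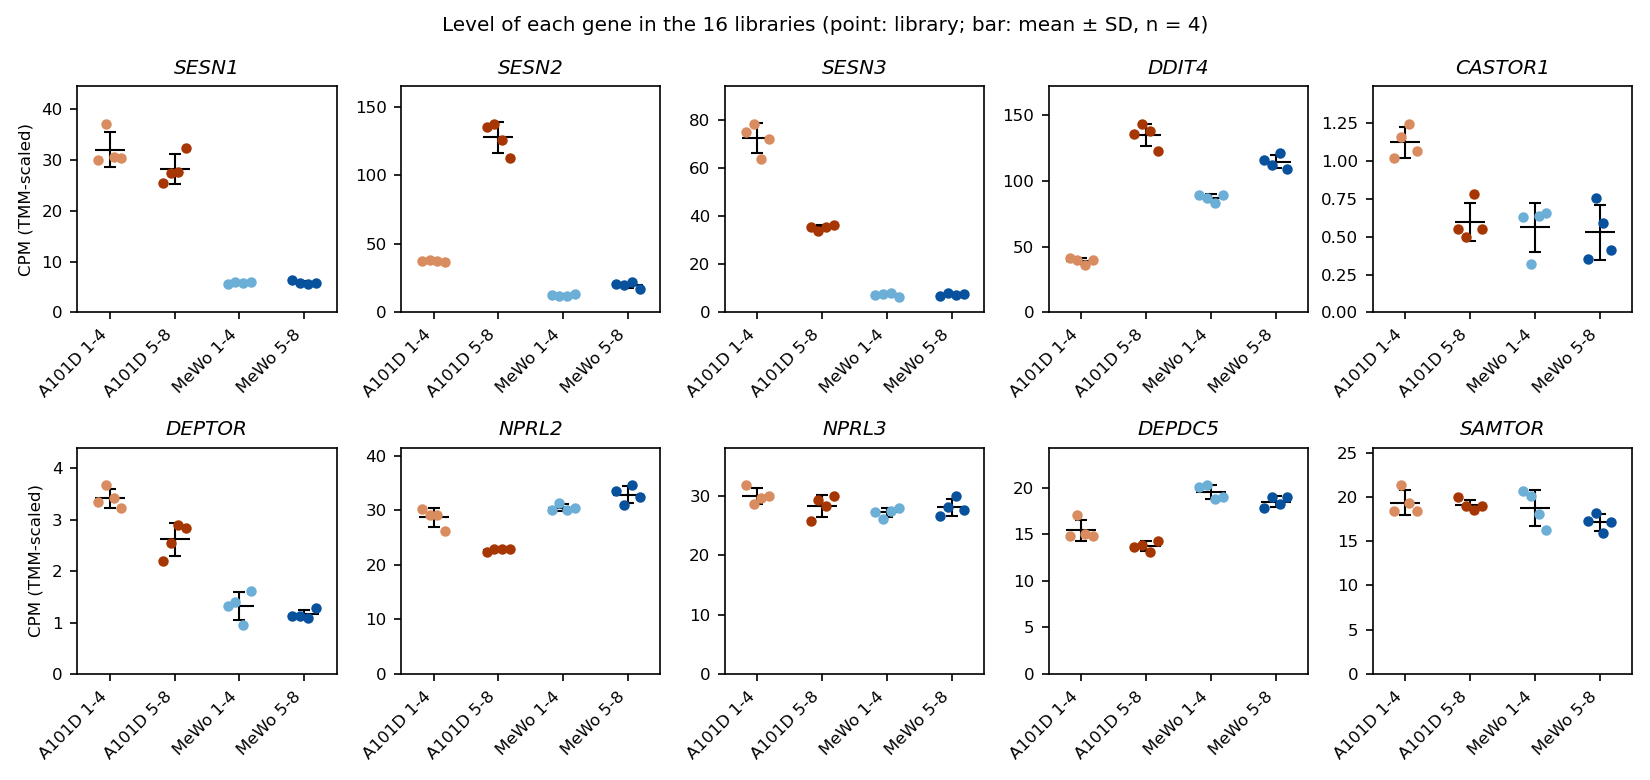
Level of each of the 10 genes in CPM (vertical axis, one panel per gene, each starting at 0) in the 4 groups of libraries (horizontal axis). Points are libraries, and the bar is the mean ± SD of 4. SESN2 and DDIT4 stand highest in A101D 5-8, SESN3 in A101D 1-4, and SESN1 differs mainly by line.

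SESN2 (ENSG00000130766, chromosome 1, 28259527 to 28282491, plus strand, GRCh38) encodes a leucine-binding sestrin. Its levels in A101D replicates 1 to 4 were 37.4, 38.2, 37.8 and 36.9 CPM, and in replicates 5 to 8 they were 135, 138, 126 and 112 CPM. In MeWo, replicates 1 to 4 had 12.5, 12.3, 11.9 and 13.5 CPM and replicates 5 to 8 had 20.4, 19.7, 21.9 and 17.2 CPM. All 8 libraries numbered 5-8 lay above all libraries numbered 1-4 of their own line, and every A101D library lay above every MeWo library. Replicates 5-8 exceeded 1-4 by 1.76 ± 0.05 in A101D (3.39-fold, adjusted p 5.87e-23) and by 0.65 ± 0.08 in MeWo (1.57-fold, adjusted p 2.34e-06). The difference between these 2 differences, MeWo minus A101D, was -1.11 ± 0.10 (adjusted p 5.77e-11, the interaction term in limma). The gap between the lines was thus wider in the higher-numbered libraries, going from -1.58 ± 0.08 in replicates 1-4 to -2.69 ± 0.06 in replicates 5-8 (6.47-fold lower in MeWo). No exon of SESN2 is shared with another annotated gene. Its promoter stretch, printed above, holds 2 matches to CCAAT, a motif added after the sequences had been seen and present in 34.6% of all windows. Any part of these matches in the level of SESN2 was not tested.

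DDIT4 (ENSG00000168209, chromosome 10, 72273920 to 72276036, plus strand) encodes REDD1. Replicates 1 to 4 of A101D had 41.04, 39.6, 36.3 and 39.6 CPM, and replicates 5 to 8 had 135, 143, 138 and 123 CPM. In MeWo the first 4 libraries had 89.1, 87.1, 82.8 and 89.2 CPM and the other 4 had 116, 112, 121 and 109 CPM. The 4 groups did not overlap, and their order from low to high was A101D 1-4, MeWo 1-4, MeWo 5-8 and A101D 5-8. The difference between ranges was 1.78 ± 0.05 in A101D (3.43-fold, adjusted p 1.04e-29) and 0.39 ± 0.04 in MeWo (1.31-fold, adjusted p 1.67e-08), and the interaction was -1.39 ± 0.06 (adjusted p 2.99e-21). Against A101D, MeWo was higher by 1.15 ± 0.05 in replicates 1-4 (2.22-fold, adjusted p 1.62e-23) and lower by 0.23 in replicates 5-8 (-0.23 ± 0.04, 1.18-fold, adjusted p 1.88e-06). Over all 8 libraries per line these opposite differences left 0.45 ± 0.31, which did not pass the threshold (adjusted p 0.192). DDIT4 was the single member of the 6 called in both ranges whose direction was opposite in them. Among all genes tested, 15489 were called in both ranges and 1150 of these in opposite directions, to be set beside 1 of the 6 members. Those 1150 are 5.33% of all genes tested, to be set beside 1 of all 10 members. DDIT4 shares 41.2% of its exon length with the antisense gene DDIT4-AS1, which had 0 counts in all 16 libraries.

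SESN3 (ENSG00000149212, chromosome 11, 95165513 to 95232541, minus strand) is a sestrin known as a target of FOXO factors. Replicates 1 to 4 of A101D had 75.3, 78.6, 64.1 and 72.4 CPM, and replicates 5 to 8 had 35.6, 33.8, 35.6 and 36.6 CPM. MeWo had 7.45, 7.59, 8.27 and 6.65 CPM in replicates 1 to 4 and 6.94, 7.97, 7.48 and 7.53 CPM in replicates 5 to 8. The ranges did not overlap in A101D and fully overlapped in MeWo. SESN3 was 2.05-fold lower in replicates 5-8 of A101D (-1.04 ± 0.05, adjusted p 2.06e-21) and differed by 0.01 ± 0.10 in MeWo (adjusted p 0.974), and the interaction was 1.04 ± 0.11 (adjusted p 1.05e-10). The gap between lines was 9.71-fold in replicates 1-4 (-3.28 ± 0.08) and 4.72-fold in replicates 5-8 (-2.24 ± 0.08), lower in MeWo in both.

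SESN1 (ENSG00000080546, chromosome 6, 108986437 to 109094819, minus strand), a sestrin known as a p53 target, separated the lines and hardly the ranges. A101D replicates 1 to 4 had 30.1, 37.2, 30.6 and 30.4 CPM and replicates 5 to 8 had 25.4, 27.5, 27.6 and 32.4 CPM. In MeWo the 8 libraries lay between 5.58 and 6.33 CPM, with a median of 5.85 CPM. Every MeWo library was below every A101D library, while the ranges of A101D overlapped through replicate 8. Over all libraries MeWo was 5.08-fold lower (-2.35 ± 0.08, adjusted p 1.39e-14), the difference with the smallest SE among the 3 sestrins. Within A101D, replicates 5-8 were lower by 0.18 on the log2 scale (-0.18 ± 0.06, adjusted p 0.00895). That call was lost without A101D replicate 2 (adjusted p 0.0905), without replicate 5 (0.0692), with upper-quartile factors (0.119) and with total counts (0.235). In MeWo the ranges differed by 0.01 ± 0.12 (adjusted p 0.973).

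Because the sestrins share one partner, GATOR2, their levels were also added after division by exon length (CPM per kilobase of exon). That length merges all annotated exons of a gene, so the shares of each sestrin are approximate. The summed sestrin level was 24.0 ± 1.22 in A101D 1-4, 45.8 ± 2.72 in A101D 5-8, 5.48 ± 0.155 in MeWo 1-4 and 7.60 ± 0.556 in MeWo 5-8 (CPM per kilobase, SD, n = 4 each). No group overlapped another in this sum. SESN2 made up 45.4 ± 1.92% of it in A101D 1-4 and 80.6 ± 2.60% in A101D 5-8, and in MeWo its share was 66.1 ± 1.83% and 75.4 ± 2.02%. The share of SESN3 in A101D was 28.6 ± 1.53% in replicates 1-4 and 7.33 ± 0.670% in replicates 5-8. SESN1 held 26.0 ± 1.53% and 12.1 ± 1.98% there. The opposite differences of SESN2 and SESN3 thus gave a sum that was higher, and made mostly of SESN2, in A101D 5-8.

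**Figure D2:**
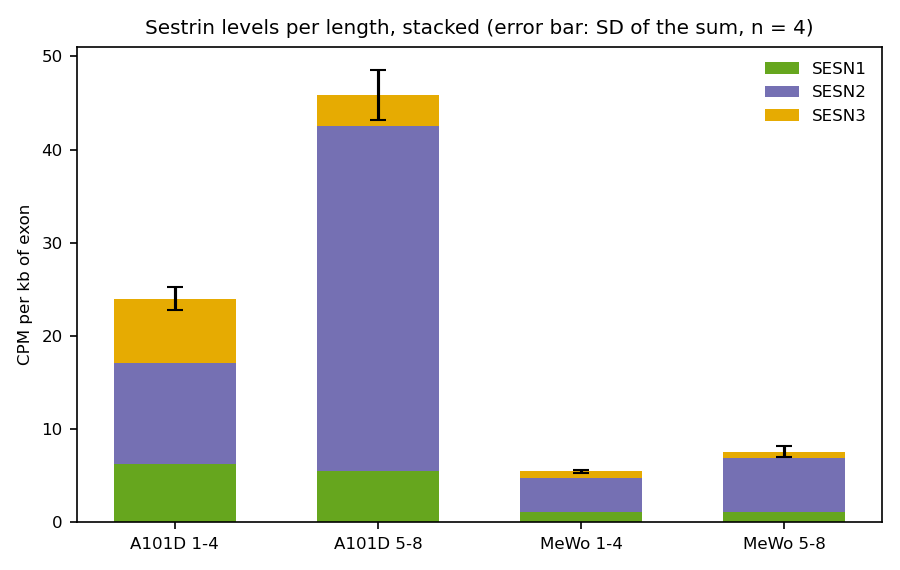
Stacked mean level per exon length of SESN1, SESN2 and SESN3 in CPM per kilobase (vertical axis) for the 4 groups of libraries (horizontal axis), with the SD of the sum over 4 libraries as the error bar. The sum runs from 5.48 in MeWo 1-4 to 45.8 in A101D 5-8, and SESN2 is the widest band in every group.

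CASTOR1 (ENSG00000239282, chromosome 22, 30285117 to 30289627, minus strand), the arginine sensor, was the least abundant member, with 10 to 39 counts per library. A101D replicates 1 to 4 had 1.02, 1.16, 1.25 and 1.07 CPM and replicates 5 to 8 had 0.549, 0.500, 0.780 and 0.550 CPM. MeWo had 0.633, 0.318, 0.636 and 0.659 CPM in replicates 1 to 4 and 0.355, 0.755, 0.591 and 0.411 CPM in replicates 5 to 8. The 4 libraries A101D 1-4 stood above all others, and the remaining 12 libraries were mixed. In A101D, replicates 5-8 were 1.88-fold lower (-0.91 ± 0.23, adjusted p 0.00071). Among replicates 1-4, MeWo was 2.02-fold lower than A101D (-1.01 ± 0.24, adjusted p 0.000263), and among replicates 5-8 the lines differed by -0.19 ± 0.27 (adjusted p 0.504). Over all libraries the difference of -0.60 ± 0.24 passed (adjusted p 0.0330), but not without A101D replicate 1, 2, 3 or 4 or MeWo replicate 2, 5 or 8, one at a time (adjusted p 0.0581 to 0.0751), nor without the low-count filter (0.0526). The interaction of 0.82 ± 0.36 missed the threshold (adjusted p 0.0587) and passed it without A101D replicate 7 (0.0398) or MeWo replicate 5 (0.0286) or 8 (0.0434). CASTOR1 shares 46.0% of its exon length on the same strand with the read-through gene model AC004997.1, which had 0 or 1 count per library, and how reads of the shared part were assigned is not given in the sources used here.

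SAMTOR (ENSG00000164603, chromosome 7, 112819147 to 112939916, minus strand) is the member closest to methionine, since its ligand S-adenosylmethionine is made from it. The lowest of the 16 libraries, MeWo replicate 7, had 15.9 CPM and the highest, A101D replicate 2, had 21.3 CPM. The means were 19.4 ± 1.36 in A101D 1-4, 19.1 ± 0.597 in A101D 5-8, 18.7 ± 2.02 in MeWo 1-4 and 17.1 ± 0.950 in MeWo 5-8 (CPM, SD, n = 4 each). The ranges overlapped in both lines, with differences of -0.02 ± 0.06 in A101D (adjusted p 0.843) and -0.12 ± 0.07 in MeWo (adjusted p 0.231). Without MeWo replicate 4 the MeWo difference was -0.22 and was called (adjusted p 0.0143), as was the interaction (-0.21, adjusted p 0.0449), which was -0.11 ± 0.09 with all libraries (adjusted p 0.344). In A101D the sign of this difference was positive with median-of-ratios factors, upper-quartile factors and total counts. The lines differed by -0.10 ± 0.06 over all libraries (adjusted p 0.113), a difference that was called with total counts (-0.13, adjusted p 0.0428). Among replicates 5-8 MeWo was lower by 0.16 on the log2 scale (-0.16 ± 0.06, 1.11-fold, adjusted p 0.0241), a call lost without MeWo replicate 7 (0.151) or 8 (0.0761) and without the low-count filter (0.119). SAMTOR shares no exon with another annotated gene.

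DEPTOR (ENSG00000155792, chromosome 8, 119873717 to 120050913, plus strand), which binds and inhibits mTOR, was low in both lines, with 30 to 128 counts per library. A101D had 3.34, 3.67, 3.42 and 3.23 CPM in replicates 1 to 4 and 2.20, 2.55, 2.89 and 2.83 CPM in replicates 5 to 8. In MeWo the levels were 1.32, 1.40, 0.954 and 1.62 CPM and then 1.13, 1.12, 1.09 and 1.28 CPM. Every A101D library was above every MeWo library, and within A101D every library of 1-4 was above every library of 5-8. MeWo was 2.41-fold lower over all libraries (-1.27 ± 0.13, adjusted p 6.28e-08), and the gap was close to this in replicates 1-4 (-1.37 ± 0.15) and 5-8 (-1.16 ± 0.16). In A101D, replicates 5-8 were 1.30-fold lower (-0.38 ± 0.12, adjusted p 0.00634). MeWo differed between ranges by -0.17 ± 0.18 (adjusted p 0.629), and the interaction of 0.21 ± 0.22 was not called (adjusted p 0.450).

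The GATOR1 subunits differed by less than 1.5-fold in every comparison made. All 3 had negative differences between replicates 5-8 and 1-4 of A101D, called for NPRL2 and DEPDC5, while over all libraries of both lines NPRL2 and DEPDC5 were higher in MeWo and NPRL3 was not called. NPRL2 (ENSG00000114388, chromosome 3, 50347330 to 50351091, minus strand) had 30.3, 29.2, 29.1 and 26.3 CPM in A101D 1-4 and 22.4, 23.0, 22.9 and 22.9 CPM in A101D 5-8. Its MeWo libraries had 30.03, 31.4, 30.05 and 30.5 CPM in replicates 1 to 4 and 33.6, 30.9, 34.6 and 32.5 CPM in replicates 5 to 8. The A101D ranges did not overlap, the MeWo ranges did, and the 4 libraries A101D 5-8 were the lowest of the 16. NPRL2 was 1.26-fold lower in replicates 5-8 of A101D (-0.33 ± 0.05, adjusted p 2.47e-07), against 0.11 ± 0.05 in MeWo (adjusted p 0.133, and 0.0268 with total counts), and the interaction was 0.44 ± 0.07 (adjusted p 8.99e-07). The lines did not pass the threshold in replicates 1-4 (0.09 ± 0.05, adjusted p 0.0973), although this difference was called with upper-quartile factors (0.0327), with a filter at 1 CPM (0.0298) and in 9 of 16 fits that left out 1 library (A101D replicate 1, 3 or 8 or MeWo replicate 1, 3, 4, 6, 7 or 8, adjusted p 0.0251 to 0.0473). In replicates 5-8 MeWo was 1.44-fold higher (0.53 ± 0.05, adjusted p 8.98e-13). NPRL2 shares 10.8% of its exon length with CYB561D2 on the opposite strand, whose A101D level lay at 28.4 to 29.6 CPM in replicates 1-4 and 38.8 to 42.5 CPM in replicates 5-8, opposite in direction to NPRL2.

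NPRL3 (ENSG00000103148, chromosome 16, 84271 to 138860, minus strand), the partner of NPRL2 in GATOR1, lay between 25.7 and 31.8 CPM in A101D and between 26.2 and 30.01 CPM in MeWo. Its ranges overlapped in both lines (-0.08 ± 0.05 in A101D, adjusted p 0.138, and 0.04 ± 0.05 in MeWo, adjusted p 0.661), and with total counts the A101D difference was 0.02. Over all libraries the lines differed by -0.08 ± 0.04 (adjusted p 0.128), called with total counts (-0.10, adjusted p 0.0478) and without A101D replicate 5 (-0.11, adjusted p 0.0173). MeWo was 1.10-fold lower among replicates 1-4 (-0.14 ± 0.05, adjusted p 0.0112), a call lost without A101D replicate 1 or MeWo replicate 1, 2, 3, 4 or 8 (adjusted p 0.0527 to 0.0903). NPRL3 shares 13.8% of its exon length with MPG on the opposite strand, which in A101D had 34.9 to 37.2 CPM in replicates 1-4 and 19.7 to 21.7 CPM in replicates 5-8.

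DEPDC5 (ENSG00000100150, chromosome 22, 31753867 to 31908033, plus strand), the GATOR1 subunit that contacts the Rag GTPases, was higher in MeWo without overlap. A101D had 13.1 to 17.0 CPM with a median of 14.5 CPM, and MeWo had 17.8 to 20.3 CPM with a median of 19.0 CPM. The difference was 0.39 ± 0.05 over all libraries (1.31-fold, adjusted p 2.55e-06), 0.35 ± 0.06 in replicates 1-4 and 0.43 ± 0.06 in replicates 5-8. In A101D, replicates 5-8 were lower by 0.16 on the log2 scale (-0.16 ± 0.06, adjusted p 0.0183), a call lost without A101D replicate 2 (0.106) or 7 (0.0846), with upper-quartile factors (0.205) and with total counts (0.372).

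Counted together, 7 of the 10 members passed the threshold between the lines over all libraries, 2 higher and 5 lower in MeWo, where 78.5% of all genes tested passed (37.5% higher, 41.0% lower). For 5 members no MeWo library overlapped those of A101D (SESN1, SESN2, SESN3, DEPTOR and DEPDC5), against 55.2% of all genes. In replicates 1-4, 8 members passed (2 higher, 6 lower in MeWo), with 79.4% of all genes (37.1% higher, 42.3% lower), and 8 did not overlap, with 72.9% of all genes. In replicates 5-8, 8 passed (2 higher, 6 lower), with 84.2% of all genes (40.3% higher, 43.9% lower), and 8 did not overlap, with 79.2% of all genes. With 10 members, these counts are no result about the set. The median absolute difference over all libraries was 0.53 for the members and 0.76 for all genes tested. In replicates 1-4 the order was the opposite, at 1.08 for the members against 0.71 for all genes, and in replicates 5-8 the medians were 0.48 and 0.86.

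Between the number ranges, 8 members passed in A101D, 2 higher and 6 lower in replicates 5-8, where 65.6% of all genes passed (33.1% higher, 32.4% lower). A difference of more than 2-fold was found for 3 members (SESN2 and DDIT4 higher, SESN3 lower), against 16.6% of all genes, and 7 did not overlap, against 59.6%. In MeWo, 2 members passed, SESN2 and DDIT4, both higher in replicates 5-8, where 13.6% of all genes passed (6.16% higher, 7.45% lower). SESN2 and DDIT4 were also the 2 members whose MeWo ranges did not overlap, against 16.6% of all genes, 7.83% in this direction. The interaction was called for 4 members (SESN2, SESN3, DDIT4 and NPRL2), where 49.1% of all genes were called (25.9% with a positive and 23.2% with a negative value). The median absolute difference between ranges was 0.36 for the members and 0.41 for all genes in A101D, and 0.10 against 0.12 in MeWo. The members' medians are therefore close to those of all genes. In the plot of range differences, SESN2 and DDIT4 of A101D lie apart from the rest of the set. SESN3 (-1.04 ± 0.05 in A101D) lies close to CASTOR1 (-0.91 ± 0.23).

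**Figure D3:**
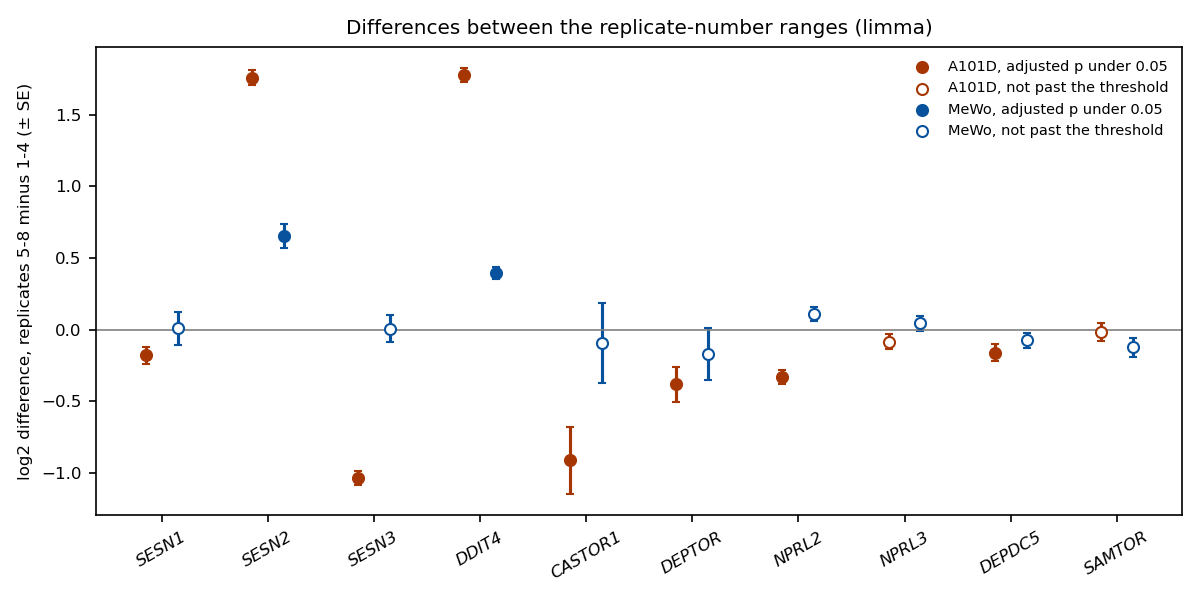
Log2 difference between replicates 5-8 and 1-4 (vertical axis, ± SE from limma) for each of the 10 genes (horizontal axis), in A101D (orange) and MeWo (blue), with filled points past the threshold. SESN2 and DDIT4 lie above 0 in both lines, at 1.76 and 1.78 in A101D and at 0.65 and 0.39 in MeWo, and SESN3 lies at -1.04 in A101D and 0.01 in MeWo.

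Other properties of the libraries moved with the ranges in A101D. Genes with at least 1 count numbered 31281 to 33107 in A101D 1-4 and 34020 to 34607 in A101D 5-8, mitochondrial genes took 1.71 to 1.92% and 1.93 to 2.33% of counts, and TMM factors were 0.955 to 0.985 and 1.03 to 1.06. The 5 fibroblast markers summed to 924 to 1039 CPM in A101D 1-4, against 582 to 652 CPM in A101D 5-8, and to 76.0 to 85.8 CPM in MeWo, mostly from LUM. In A101D the sum was nearly that of COL1A2 alone (915 to 1028 CPM and 574 to 642 CPM in the 2 ranges), while COL1A1 (0.475 to 1.07 CPM) and DCN (0 to 0.237 CPM) were near 0 in all 8 libraries and had the higher mean in A101D 5-8. The summed markers of the melanocyte lineage moved with the ranges as well: A101D 1-4 had sums of 2871 to 3464 CPM against 2496 to 2743 CPM for A101D 5-8. Of these, MITF stood at 192 to 239 CPM and 141 to 158 CPM. DCT stood at 1419 to 1895 CPM and 1244 to 1392 CPM, and MLANA at 23.5 to 36.1 CPM and 16.5 to 18.7 CPM. S100B (mean 681 CPM, then 536 CPM) and SOX10 (388 CPM, then 366 CPM) were also lower in A101D 5-8, SOX10 by little. PMEL went the other way, with overlapping libraries and a mean of 239 CPM for A101D 5-8 against 204 CPM. The nearly absent TYR (mean 1.39 CPM, then 1.64 CPM) and TYRP1 (0.393 CPM, then 1.42 CPM) had the higher mean in A101D 5-8 too. The 3 endothelial markers, mostly VWF, had sums of 3.74 to 4.80 CPM in A101D 1-4 against 15.2 to 19.7 CPM in A101D 5-8. Of the leukocyte markers, ITGAM had 1.99 to 3.45 CPM in A101D 1-4 against 4.65 to 6.62 CPM in A101D 5-8, and CD3E and PTPRC were at 0 to 0.275 CPM in every library. Of the 4 keratinocyte markers, KRT1 had 0 counts in A101D, and sums were 33.8 to 36.7 CPM for A101D 1-4, against 39.2 to 42.4 CPM for A101D 5-8, nearly all from KRT10. The part of these differences in those of SESN2, DDIT4, SESN3 and the other members was not tested.

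Levels of different genes were set side by side per kilobase of exon. Exon length merges all annotated exons of a gene, whichever transcript holds them, so the order between genes is approximate. DDIT4 was the highest member in all 4 groups, at 19.0 ± 0.966 in A101D 1-4, 65.5 ± 4.19 in A101D 5-8, 42.3 ± 1.46 in MeWo 1-4 and 55.7 ± 2.46 in MeWo 5-8 (CPM per kilobase, SD, n = 4). CASTOR1 was the lowest in all 4, between 0.192 ± 0.0662 in MeWo 5-8 and 0.409 ± 0.0366 in A101D 1-4. SESN2 came next after DDIT4 in both A101D groups (10.9 ± 0.161 and 37.0 ± 3.32), at rank 3 in MeWo 5-8 (5.74 ± 0.568) and at rank 5 in MeWo 1-4 (3.63 ± 0.196). NPRL2 came next after DDIT4 in both MeWo groups, at 8.29 ± 0.175 and 8.95 ± 0.433. In A101D 1-4, NPRL2, SESN3 and SESN1 followed SESN2 at 7.81 ± 0.465, 6.86 ± 0.589 and 6.26 ± 0.666, and neighbours among these 3 overlapped. SAMTOR and NPRL3 were neighbours with overlapping libraries in every group, at 4.68 ± 0.330 and 4.55 ± 0.197 in A101D 1-4 and at 4.14 ± 0.230 and 4.25 ± 0.215 in MeWo 5-8. The other overlapping neighbours were NPRL2 and SESN1 in A101D 5-8, and SESN1 and DEPDC5 in MeWo 1-4.

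**Figure D4:**
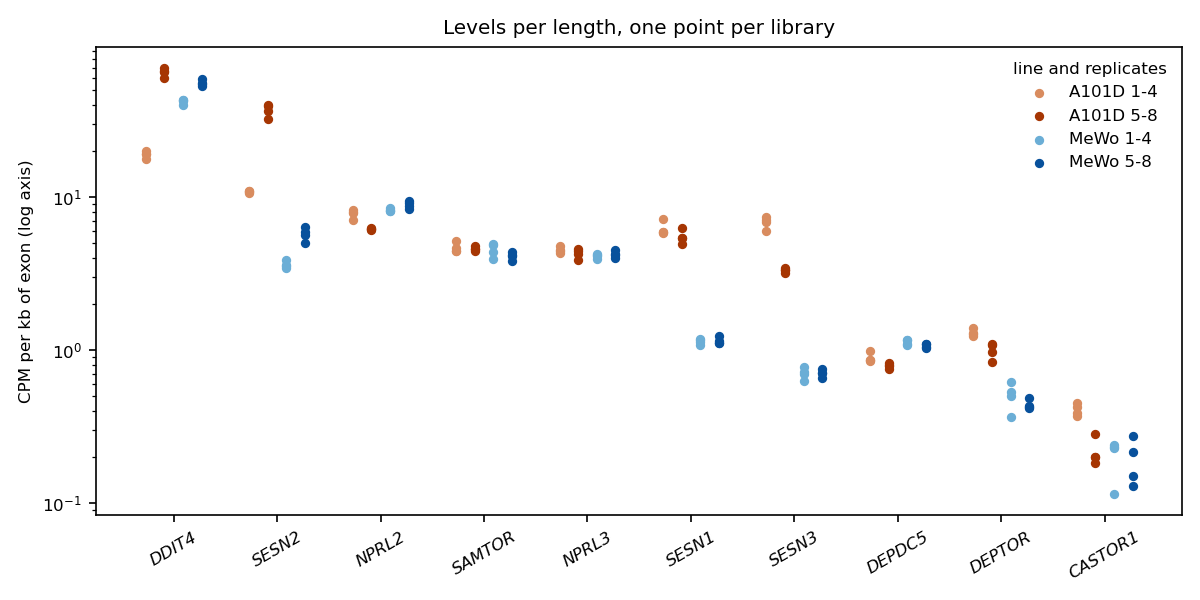
Level per exon length in CPM per kilobase (vertical log axis) of the 10 genes (horizontal axis, ordered by mean) with one point per library, coloured by line and range. DDIT4 is the highest gene in each group and CASTOR1 the lowest, and SAMTOR and NPRL3 form compact columns between 3 and 6.

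The genes whose pattern was most like that of DDIT4, the member with the largest difference between ranges in A101D, were sought among 10131 genes with a symbol and a mean of at least 10 CPM. Likeness was the mean absolute difference between centred log2 levels over the 16 libraries, which had a median of 0.67 over all genes compared. The nearest was CEBPB, a transcription factor of the stress and acute-phase responses, at 0.0664, with mean levels of 31.7, 109.6, 63.9 and 88.7 CPM in A101D 1-4, A101D 5-8, MeWo 1-4 and MeWo 5-8. FANCF, a Fanconi anaemia protein, followed at 0.0934 and AKNA at 0.112. DDIT3, which encodes the stress factor CHOP, came next at 0.149, with 14.9, 46.7, 25.3 and 35.0 CPM in the same order of groups, and ZNF232 closed the 5 nearest at 0.158. SESN2, which shares the direction of DDIT4 between ranges in both lines, was at 1.30, farther than the median gene, since its levels in MeWo were far below those in A101D. Of the other members, NPRL2 and NPRL3 (both 0.60), DEPDC5 (0.605) and SAMTOR (0.612) were nearly tied. These 4 lay close to the median gene, so none of them had a pattern like that of DDIT4.

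The wider pathway was described with a list of 40 further genes, all of which passed the low-count filter. In A101D, 13 were higher and 20 lower in replicates 5-8 and 7 did not pass, where 65.6% of all genes passed. The split was 16 higher and 13 lower with upper-quartile factors or total counts, and total counts alone moved the median log2 difference of all genes by 0.10. In MeWo, where 13.6% of all genes passed, 5 were higher, 5 lower and 30 did not pass, against 9 higher and 2 lower with total counts. The interaction, called for 49.1% of all genes, was called for 30 of the 40, 18 more positive in MeWo and 12 less, and for 12 and 14 with total counts. The median absolute difference of the list was 0.26 in A101D and 0.07 in MeWo, below the 0.41 and 0.12 of all genes.

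Among the subunits of mTORC1, 3 of 4 were lower in replicates 5-8 in each line, where 32.4% of all genes were called lower in A101D and 7.45% in MeWo. With total counts fewer genes of the whole pathway list than these 3 were lower in MeWo, as given above. Not all 3 MeWo calls therefore held with that scaling. AKT1S1, which encodes the inhibitory subunit PRAS40, had a mean of 101.5 CPM in A101D 1-4 and 54.2 CPM in A101D 5-8 (-0.90 ± 0.04, adjusted p 2.59e-21), and the kinase MTOR had 271 and 198 CPM (-0.46 ± 0.03). In MeWo the corresponding differences were -0.25 ± 0.05 for AKT1S1 and -0.09 ± 0.03 for MTOR, with RPTOR, the scaffold, at -0.20 ± 0.04. Of the 13 Rag GTPases, Ragulator subunits and lysosomal regulators, 5 were higher and 7 lower in A101D 5-8 (33.1% and 32.4% of all genes), and 1 was higher and 0 lower in MeWo (6.16% and 7.45%). RRAGC, a Rag GTPase, had 13.7 and 25.1 CPM in the A101D ranges (0.88 ± 0.06) and LAMTOR1, which anchors Ragulator to the lysosome, had 69.1 and 41.7 CPM (-0.73 ± 0.04). The 1 gene called in MeWo was LAMTOR2 (0.29 ± 0.05).

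The 5 GATOR2 genes, which encode the complex that sestrins and CASTOR1 bind, gave 2 higher and 2 lower in A101D 5-8 (33.1% and 32.4% of all genes), led by SEH1L (-0.43 ± 0.05) and WDR59 (0.28 ± 0.05), and 1 lower in MeWo, SEH1L (-0.13 ± 0.04), where 7.45% of all genes were lower. Among the KICSTOR genes, whose product tethers GATOR1 to the lysosome, KICS2 was higher in both lines (0.54 ± 0.06 in A101D and 0.39 ± 0.07 in MeWo) and KPTN was lower in A101D (-0.38 ± 0.09). In the TSC branch, through which DDIT4 acts, TSC1 (0.56 ± 0.04) and TSC2 (0.28 ± 0.03) were higher in A101D 5-8. TBC1D7 (-0.31 ± 0.04) and the GTPase RHEB (-0.14 ± 0.03) were lower in A101D 5-8, where 65.6% of all genes passed. None of the 4 passed in MeWo (adjusted p 0.226 to 0.987 in limma), where 13.6% of all genes did. DDIT4L, the paralog of DDIT4, had means of 2.47 CPM in A101D 1-4, 5.80 CPM in A101D 5-8, 4.15 CPM in MeWo 1-4 and 6.84 CPM in MeWo 5-8. It was higher in replicates 5-8 in both lines (1.22 ± 0.12 in A101D, 0.73 ± 0.10 in MeWo), as DDIT4 was. DDIT4L was the only gene of the 40 past 2-fold in A101D, where 16.6% of all genes were. Among the 6 substrates, EIF4EBP2, a repressor of translation, had 149 and 85.4 CPM in the A101D ranges (-0.80 ± 0.04), the autophagy kinase ULK1 had 40.0 and 25.1 CPM (-0.67 ± 0.05), and EIF4EBP1 was higher (0.45 ± 0.03).

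**Figure D5:**
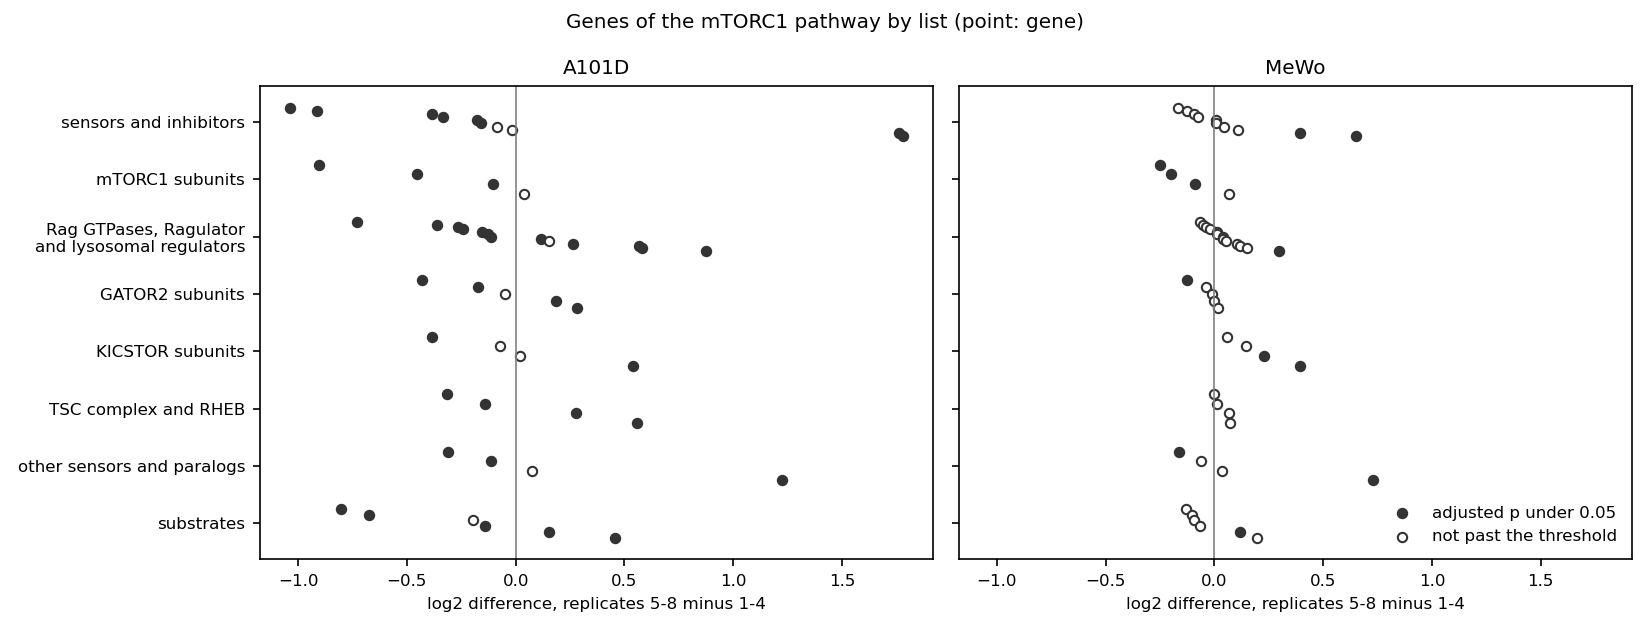
Log2 difference between replicates 5-8 and 1-4 (horizontal axis) of the 10 sensors and inhibitors and of 40 other mTORC1 pathway genes by list (rows), in A101D (left) and MeWo (right), with filled points past the threshold of limma. SESN2, DDIT4 and DDIT4L are the points to the right of 1 in A101D, and the MeWo points lie between -0.25 and 0.73.

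Between the lines, 18 of the 40 were higher and 12 lower in MeWo over all libraries, and 10 did not pass. Of all genes, 37.5% were higher and 41.0% lower in this comparison, 78.5% together. The largest differences were those of LAMTOR1 (1.65 ± 0.13, 55.4 CPM in A101D and 168 CPM in MeWo), RRAGD (1.30 ± 0.06) and KPTN (-1.16 ± 0.11). The KICSTOR genes KPTN, ITFG2 and KICS2 were lower in MeWo (ITFG2 at -0.89 ± 0.06 and KICS2 at -0.29 ± 0.12). CASTOR2, the paralog of CASTOR1, was lower as well (-0.86 ± 0.05, 51.5 CPM in A101D and 28.3 CPM in MeWo), but near-identical copies of this gene in the genome make its counts uncertain. Within GATOR2, MIOS was lower (-0.84 ± 0.04) and SEH1L higher (0.71 ± 0.08) in MeWo.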

How the data were processed

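Total RNA was sequenced in 16 libraries of 2 cell lines with a kit that keeps strand, per the labels. Each line has 1 deposited table, in which every cell holds an Ensembl identifier joined to its raw whole-number count over exons, per the file headers. Identifier and count were separated, and the authors had not normalized the counts. The submitters' processing notes name Trimmomatic 0.39-1, STAR 2.7.1a, featureCounts 2.0.0 and GRCh38. Neither the annotation release nor whether counting used strand is stated in the labels or headers, so reads of overlapping or antisense genes may have gone to either gene. Positions, exon lengths and overlaps are from GENCODE v29 (GRCh38).

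Counts were scaled with TMM factors (trims of 30% on ratios and 5% on means) to CPM. Genes entered the tests with 0.298 CPM or more (10 counts at the median depth) in 4 or more libraries and a total of at least 15 counts. The voom method of limma 3.58.1 (R 4.3.3), with robust moderation of variances, was fitted to the 4 groups of line and range, and to the lines alone for the comparison over all libraries. A count model planned in its place was not run, because the joined cells did not pass as counts. The threshold was an adjusted p of 0.05 after Benjamini and Hochberg. The step was tested on simulated data in which 200 genes were changed. It recovered 100% of 2-fold changes in each comparison, and of 1.5-fold changes 57% for the interaction and 90 to 100% in the others. These rates were not split by level of expression. They therefore do not show how well changes are recovered in CASTOR1 (10 to 39 counts) or DEPTOR (30 to 128 counts). Far more genes were called in the real data, so the simulation does not show how scaling and false calls behave there.

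All 10 members are named whatever their values, with the 2 genes of each pathway list that differed most in a comparison; further pathway genes were named after their values were seen, and 2 listed genes are not reported here by name. Likeness of pattern used log2 CPM with a prior count of 2. The members, lists, ranges and marker lists were chosen with earlier results of these data known, so the differences between ranges are descriptions and no evidence of what the numbers mark. Alternatives were other scaling factors and filters, limma-trend, a threshold of 0.01, the replicate number as a block and leaving out each library.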

Additional observations from a re-analysis of the deposited data

Results flagged for a closer look

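In 3 of the 60 groups of libraries checked, 1 library lay far from the others of its group by Dixon's criterion at the 95% level, and chance alone gives about 1 group in 20, here 3. SESN1 had 37.2 CPM in A101D replicate 2, and the nearest of the other libraries among A101D 1-4 had 30.6 CPM. DEPDC5 had 17.0 CPM in the same library, where its nearest neighbour, replicate 3, had 14.98 CPM. CASTOR1 had 0.318 CPM in MeWo replicate 2, against 0.633 CPM in the nearest of MeWo 1-4. For SESN1 and DEPDC5 the difference between ranges in A101D was not called without it.

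The difference between replicates 5-8 and 1-4 itself differed between the lines for 4 members by the interaction term in limma, MeWo minus A101D on the log2 scale. The value was -1.39 for DDIT4 and -1.11 for SESN2, both higher in replicates 5-8 of both lines and by more in A101D. It was 1.04 for SESN3 and 0.44 for NPRL2, both lower in replicates 5-8 of A101D.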

How the results depend on the processing

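Of 1420 refits of single members under 8 other settings and 16 fits each without 1 library, 1339 kept the call and the direction, 29 lost the call, 20 gained one and 32 changed sign, none of the last with a call in either fit. The number of members called ran from 6 to 9 (7 as reported) between the lines over all libraries, from 7 to 9 (8) in replicates 1-4, from 7 to 8 (8) in replicates 5-8, from 6 to 8 (8) between ranges in A101D, from 2 to 3 (2) in MeWo and from 4 to 5 (4) for the interaction. The share of all genes called moved as well, between the lines over all libraries from 78.5% to 47.1% with no low-count filter. At an adjusted p of 0.01, 6 in place of 10 pathway genes were called between ranges in MeWo. There the share of all genes called went from 13.6% to 7.39%. Signs changed between ranges in A101D for NPRL3 with total counts (0.0179) and for SAMTOR with median-of-ratios factors (0.00292), upper-quartile factors (0.0613) and total counts (0.0851). In MeWo they changed for SESN1 and SESN3 with median-of-ratios factors (-0.0142 and -0.0143) and with no low-count filter (-0.0112 and -0.0124). Without 1 library, the log2 difference of SAMTOR ran from -0.0774 to 0.0623 between lines in replicates 1-4 and from -0.0440 to 0.0308 between ranges in A101D, and that of NPRL3 from -0.0725 to 0.0108 between lines in replicates 5-8. Between ranges in MeWo it ran from -0.0277 to 0.0157 for SESN1, from -0.0741 to 0.0389 for SESN3, from -0.336 to 0.0495 for CASTOR1 and from -0.000708 to 0.0675 for NPRL3. The cause of these changes was not tested.

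With the replicate number as a block, 7, 8 and 8 members were called between lines, as without it. Over all libraries, 31 in place of 30 pathway genes were called, with 79.3% in place of 78.5% of all genes. The block could not be fitted to the difference between ranges, since no number occurs in both. Same-numbered libraries of the lines had correlations of -0.0252 to 0.0780, and 3 of 8 matched their own number best. Tests with edgeR and DESeq2 were not run, because the deposited cells, which join identifier and count, did not pass as counts in a unit check. The separated values are whole-number counts. CASTOR1 and DEPTOR, with the fewest counts, have the largest errors between ranges.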
